A study of Mus musculus with 24 samples.

Results

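The circadian clock genes described here are 10 genes picked by symbol from the 55421 genes counted in hepatocytes, the parenchymal cells of the liver, isolated from mice. They are the activators Arntl (also called Bmal1), Clock and Npas2, the repressors Per1, Per2, Per3, Nr1d1, Nr1d2 and Ciart, and the output factor Dbp. Each symbol matched 1 row, and all 10 were among the 13583 genes with enough counts to be tested. PolyA RNA was measured in 24 male mice, 6 in each of 4 groups. Young mice are labelled C57BL/6N and 6 months old, while old mice are labelled C57BL/6J and 24 months old, and age cannot be told apart from substrain. The high-fat diet (HFD), 58y1 from TestDiet, supplied 60% of its energy as fat and was fed for 9 weeks. The control mice had the normal diet (ND), which the labels name as a Teklad chow. The published methods name a low-fat TestDiet control and the paper gives ages that differ from the labels and among its own sections, and the labels are followed here. The groups are young ND (YND), young HFD (YHFD), old ND (OND) and old HFD (OHFD), and no mouse carried a transgene or a drug treatment by its label. Mice were killed with CO2 and hepatocytes were isolated by perfusion, and the hour of day at which each mouse was killed is not given in the sources used here.

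The clock is a feedback loop of transcription. ARNTL pairs with CLOCK or NPAS2 and binds E-box motifs in DNA, which drives Per, Cry, Nr1d, Ciart and Dbp genes. PER and CRY proteins then hold that pair back, NR1D1 and NR1D2 repress Arntl, Clock and Npas2, and the levels of most of these RNAs in liver rise and fall over each day, with activator and repressor RNAs peaking at different hours.

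Total counts per mouse ran from 9200332 to 22185069, and all 6 OHFD mice had smaller totals than any other mouse. Libraries came from 2 batches named in the labels, with 3 mice of each group in each batch except OND, with 2 in batch 1 and 4 in batch 2. Hepatocyte markers were abundant, with the 6 of them summing to between 40880 and 150500 CPM over all mice, where CPM are counts scaled to a common library size. The median sum was lowest in OHFD, at 87960 CPM, beside 116500 in YND, 108000 in YHFD and 118200 in OND. The 10 Kupffer cell markers had a median sum of 21.6 CPM in YND (1.75 to 70.7), 85.3 in YHFD (13.8 to 169), 89.8 in OND (47.1 to 1085) and 89.2 in OHFD (48.5 to 552). Of 10 lymphocyte markers, Cd79a was at 0 in all YND mice and none was at 0 throughout another group. The median summed lymphocyte level was 2.59 CPM in YND (0.862 to 4.97), 5.78 in YHFD (1.47 to 9.13), 11.5 in OND (3.86 to 35.1) and 9.15 in OHFD (4.08 to 24.5). The 6 endothelial markers had medians of 45.7 CPM in YND (8.93 to 104), 97.3 in YHFD (34.6 to 236), 106 in OND (27.1 to 529.6) and 77.1 in OHFD (21.7 to 429). Those of the 7 stellate cell markers were 29.4 (5.34 to 63.6), 53.9 (15.1 to 186), 97.8 (60.9 to 381) and 59.4 (26.2 to 314) in the same order. Each of these 4 sums was thus lowest at the median in YND. That group was the reference of every clock gene difference that edgeR called over all 24 mice with the count filter. The part of these cells in the clock gene differences was not tested. The 4 cholangiocyte markers summed to 2.78 to 16.5 CPM, with the lowest median in YND too (4.21). Nnt, part of which is deleted in C57BL/6J, overlapped between young mice (1.34 to 2.64 CPM) and old mice (0.538 to 2.57 CPM), so its level did not separate the labelled substrains and the substrain labels were not borne out by it. In bulk RNA such as this, fewer cells of a type and less RNA per cell cannot be told apart.

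The 3 activators were lower in OHFD than in YND hepatocytes, and Arntl and Clock were also lower in YHFD than in YND. Arntl (ENSMUSG00000055116, chromosome 7, 113207465 to 113314126 of GRCm38, plus strand) encodes the shared partner of the activating pair. Its level was 8.19 CPM in the lowest YND mouse, 29.5 at the median and 36.4 in the highest, on the CPM scale, with library sizes corrected by the TMM method. In YHFD the lowest, median and highest levels were 1.97, 5.97 and 14.4 CPM. YND mice 1 to 4 all lay above every HFD mouse, young or old, while YND mice 5 and 6 lay inside the YHFD range. In OND the levels were 6.12, 18.4 and 23.6 CPM, and in OHFD 3.43, 8.33 and 11.1 CPM, so the diet groups overlapped at both ages. Arntl fell by 1.70 on the log2 scale in YHFD against YND (standard error 0.45, adjusted p = 0.0396). The adjusted p here is from edgeR's quasi-likelihood test, corrected over all 13583 genes by the Benjamini-Hochberg method, with a call at 0.05. The difference was -2.34 in batch 1 alone and -0.97 in batch 2 alone. The call was lost in 8 of 24 fits that left out 1 mouse, with adjusted p of 0.0728 to 0.11, namely YND mice 1, 2, 3 and 4 and YHFD mice 1, 3, 5 and 6. In OHFD against YND, Arntl fell by 1.68 (standard error 0.45, adjusted p = 0.00868), -2.43 in batch 1 and -0.92 in batch 2, and it was called in all 24 of those fits. The log2 difference of OHFD from OND was -1.08 (adjusted p = 0.160), and that of OND from YND was -0.60 (adjusted p = 0.449).

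Clock (ENSMUSG00000029238, chromosome 5, 76209868 to 76304792, minus strand), the usual partner of ARNTL, had the smallest spread of the 10 genes. The YND mice ran from 55.6 to 92.3 CPM (median 70.0) and the YHFD mice from 28.8 to 64.6 (median 42.6). OND mice ran from 45.9 to 66.0 CPM (median 56.4) and OHFD mice from 30.8 to 52.2 (median 41.5). Every OHFD mouse lay below every YND mouse, and the other diet and age groups overlapped. Clock fell by 0.81 on the log2 scale in OHFD against YND (standard error 0.17, adjusted p = 0.00172), called in 24 of 24 fits without 1 mouse, with -1.11 in batch 1 and -0.53 in batch 2. It fell by 0.66 in YHFD against YND (standard error 0.17, adjusted p = 0.0349), with -0.86 in batch 1 and -0.42 in batch 2. That call was lost, at adjusted p of 0.0605 to 0.109, without any of YND mice 1 to 5 or YHFD mice 1, 3, 5 and 6, which is 9 of 24 fits. The differences of OHFD from OND (-0.43, adjusted p = 0.137) and of OND from YND (-0.37, adjusted p = 0.186) did not pass.

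Npas2 (ENSMUSG00000026077, chromosome 1, 39193731 to 39363236, plus strand), the alternative partner of ARNTL, was the scarcest activator. It ranged from 0.696 to 9.63 CPM in YND (median 5.89) and from 0 to 2.63 in YHFD (median 0.775). OND mice held 0.612 to 6.95 CPM (median 3.39) and OHFD mice 0 to 3.87 (median 0.198). YHFD mouse 3 and OHFD mice 2 and 6 had 0 counts of Npas2, which allows up to 0.169, 0.230 and 0.215 CPM at 3 counts of the library, by counting error only. Npas2 fell by 2.84 on the log2 scale in OHFD against YND (standard error 0.98, adjusted p = 0.0326), -5.63 in batch 1 and -1.27 in batch 2. These fitted values depend on how the zeros are treated. The call was lost without YND mouse 1, 2 or 4 or OHFD mouse 1, 2, 3 or 6, at adjusted p of 0.0548 to 0.0935. In YHFD against YND the difference was -2.32 (standard error 0.91, adjusted p = 0.139). In OHFD against OND it was -2.18 (standard error 0.94, adjusted p = 0.177), and it was called without OHFD mouse 4 (adjusted p = 0.0348).

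**Figure D1:**
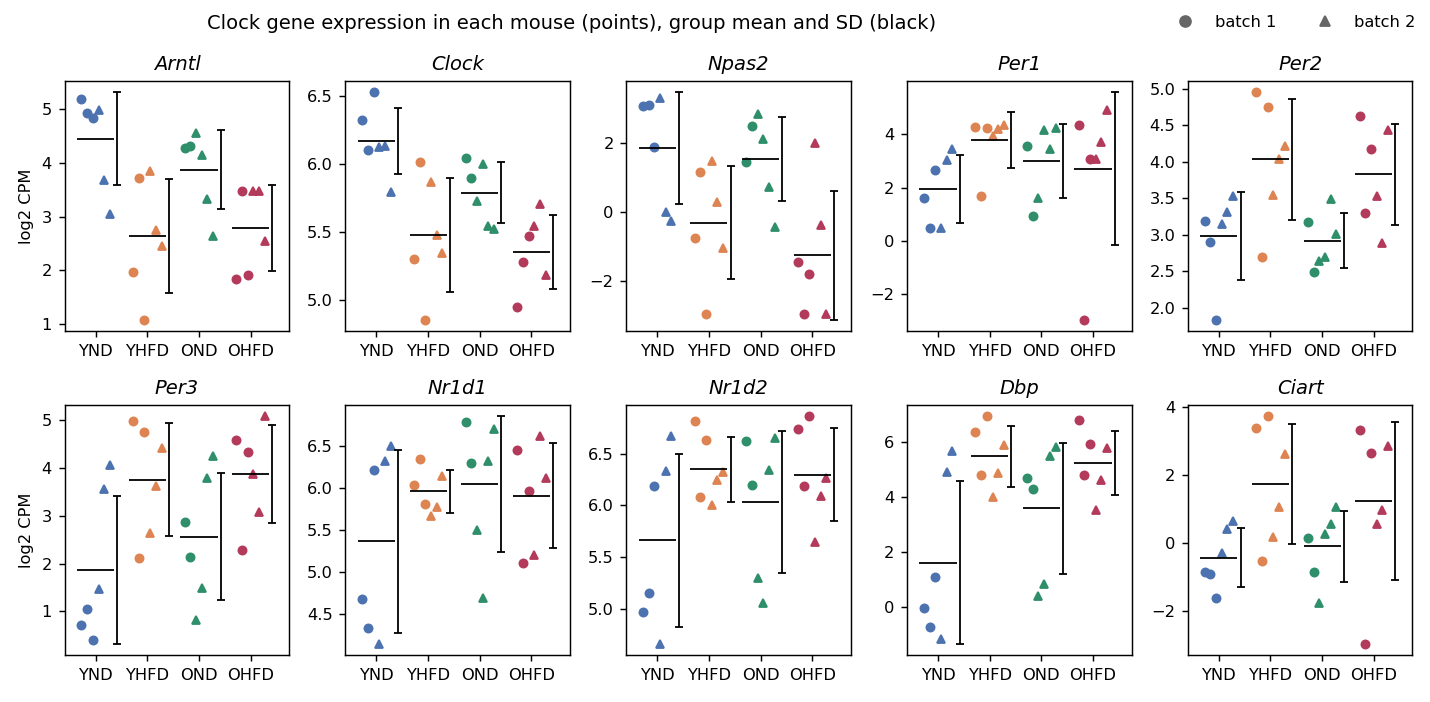
Expression of each of the 10 clock genes (panels) in log2 CPM (y axis) for each mouse (points) in YND, YHFD, OND and OHFD (x axis), with circles for batch 1 and triangles for batch 2, the group mean as a line and the SD as a bar beside it. Arntl sits highest in YND mice 1 to 4, and the same mice hold the lowest Dbp of their group, at 0.318 to 1.99 CPM.

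The repressors and Dbp are genes whose promoters the activating pair can bind, and RefSeq promoters (250 bases before to 50 after each start, GRCm38.p6) were at hand for 9 members, all but Per2, in 13 promoters. The 6 motifs below were each searched on both strands. The E-box CACGTG stood in promoters of Ciart and Per1, against 7.15% of 32851 promoters. The related CACGTT stood in that of Nr1d1, against 4.68% of promoters. The D-box TTANGTAA, the kind of site that DBP and the repressor NFIL3 bind, stood in the Per3 promoter, against 2.32%. TAGGTCA, a site of the kind that NR1D and ROR receptors bind, stood in 1 Arntl promoter 31 bases into the transcript (2.61% of promoters). TGGGTCA (3.98%) and the cyclic AMP element TGACGTCA (1.79%) were in no member's promoter. These letters describe the windows and show no binding. The stretches are printed because their genes were the repressors that varied most with Arntl or carried the activating motif, with motif letters in capitals, 5′ to 3′ on the strand of the gene. Ciart has 3 E-boxes, Per3 2 D-boxes, and in Nr1d1 the capitals are CACGTT read on the opposite strand.
Ciart, minus strand, chr3:95882252-95882359: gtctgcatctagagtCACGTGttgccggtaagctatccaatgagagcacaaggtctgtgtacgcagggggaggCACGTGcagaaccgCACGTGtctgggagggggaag
Per3, minus strand, chr4:151044801-151044885: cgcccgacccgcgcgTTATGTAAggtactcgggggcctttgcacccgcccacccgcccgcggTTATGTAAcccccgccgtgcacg
Per1, plus strand, chr11:69098768-69098803: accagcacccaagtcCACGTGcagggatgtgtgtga
Nr1d1, minus strand, chr11:98775385-98775420: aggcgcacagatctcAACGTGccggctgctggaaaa

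Per1 (ENSMUSG00000020893, chromosome 11, 69095217 to 69109960, plus strand) encodes a core repressor whose RNA also answers acute signals. It ranged from 1.27 to 10.8 CPM in YND (median 4.53) and from 3.05 to 20.1 in YHFD (median 18.5). In OND it ranged from 1.76 to 18.6 CPM (median 11.3) and in OHFD from 0 to 30.2 (median 10.7). All YHFD mice but mouse 2 exceeded every YND mouse, and OHFD mouse 2 had 0 counts, which allows up to 0.230 CPM. The log2 differences were 1.71 in YHFD against YND (standard error 0.66, adjusted p = 0.134) and 1.41 in OHFD against YND (standard error 0.66, adjusted p = 0.106), and neither passed. Without OHFD mouse 2 the second comparison was called, at an adjusted p of 0.0307.

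Per2 (ENSMUSG00000055866, chromosome 1, 91415982 to 91459324, minus strand), the second core repressor, had similar ranges in both ND groups, at 3.45 to 11.4 CPM in YND (median 8.86) and 5.49 to 11.2 in OND (median 7.17). YHFD mice held 6.38 to 30.8 CPM (median 17.5) and OHFD mice 7.30 to 24.6 (median 14.7). The highest ND mouse of either age was exceeded by 5 of 6 YHFD mice and 4 of 6 OHFD mice. Per2 rose by 0.89 on the log2 scale in OHFD against YND (standard error 0.34, adjusted p = 0.0481), 1.37 in batch 1 and 0.44 in batch 2. That call was lost in 12 of 24 fits, at adjusted p of 0.0527 to 0.128, without YND mouse 1, 2, 3, 4 or 5, YHFD mouse 6, OND mouse 1, 3 or 6, or OHFD mouse 1, 3 or 6. The differences of 1.14 in YHFD against YND (adjusted p = 0.0582) and of 1.0 in OHFD against OND (adjusted p = 0.0936) were as large and did not pass. The first was called without YHFD mouse 2 or 4, OND mouse 4 or OHFD mouse 2 or 5 (lowest adjusted p = 0.0264), and the second without OHFD mouse 5 (adjusted p = 0.0431). Between OND and YND the difference was -0.11 (adjusted p = 0.885).

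Per3 (ENSMUSG00000028957, chromosome 4, 151003652 to 151044665, minus strand), a period gene less needed for the rhythm itself, ran from 1.19 to 16.5 CPM in YND (median 2.30) and from 4.18 to 31.4 in YHFD (median 16.6). OND mice ran from 1.63 to 18.8 CPM (median 5.75) and OHFD mice from 4.76 to 33.6 (median 17.2). YND mice 1 to 4 lay below all HFD mice, and YND mice 5 and 6, at 11.6 and 16.5 CPM, lay among them. Per3 rose by 1.76 on the log2 scale in OHFD against YND (standard error 0.67, adjusted p = 0.0490), 3.36 in batch 1 and 0.88 in batch 2. The call was lost in 13 of 24 fits, at adjusted p of 0.0523 to 0.125, without YND mouse 1, 2, 3 or 4, YHFD mouse 6, OND mouse 1, 2, 5 or 6, or OHFD mouse 1, 3, 4 or 6. In YHFD against YND the difference was 1.79 (standard error 0.68, adjusted p = 0.129), and in OHFD against OND it was 1.27 (standard error 0.65, adjusted p = 0.257).

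Nr1d1 (ENSMUSG00000020889, chromosome 11, 98767932 to 98775333, minus strand), which encodes the nuclear receptor REV-ERB alpha, a repressor of Arntl, showed no difference called by edgeR with the count filter. With no count filter it was called in OND against YND (0.518, adjusted p = 0.0155), where the filtered fit gave 0.53 (standard error 0.38, adjusted p = 0.4495). It ranged from 17.6 to 90.3 CPM in YND (median 49.8), 50.7 to 81.1 in YHFD (median 60.8), 25.7 to 110 in OND (median 79.5) and 34.5 to 98.3 in OHFD (median 66.0). The log2 difference of YHFD from YND was 0.30 (standard error 0.39, adjusted p = 0.722), with 0.77 in batch 1 and -0.07 in batch 2, and that of OHFD from YND was 0.34 (standard error 0.39, adjusted p = 0.528). It shares 263 exon bases with Thra on the opposite strand (mean 15.2 CPM), and since strand handling is not stated, reads of the pair could be mixed.

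Nr1d2 (ENSMUSG00000021775, chromosome 14, 18204054 to 18239127, minus strand), its REV-ERB beta paralog, had no difference called by edgeR with the count filter either. With no count filter it was called in YHFD against YND (0.49, adjusted p = 0.0375). It ranged from 25.2 to 102 CPM in YND (median 54.0), 64.1 to 113 in YHFD (median 77.7), 33.2 to 101 in OND (median 77.2) and 49.8 to 116 in OHFD (median 74.7). The groups overlapped throughout, and the log2 differences were 0.50 in YHFD (standard error 0.31, adjusted p = 0.390) and 0.46 in OHFD (standard error 0.32, adjusted p = 0.274), each against YND. In YND, mice 1, 2 and 4 held 25.2 to 35.4 CPM and mouse 3 held 72.7, closer to mice 5 and 6.

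Ciart (ENSMUSG00000038550, chromosome 3, 95878503 to 95882251, minus strand), which encodes the repressor CHRONO that binds ARNTL, was scarce in ND mice. Its lowest, median and highest levels were 0.199, 0.557 and 1.45 CPM in YND and 0.163, 1.02 and 1.96 in OND. In YHFD they were 0.565, 4.0 and 13.2 CPM, and in OHFD 0, 4.01 and 9.98 CPM, with 0 counts in OHFD mouse 2. In each HFD group 3 of 6 mice had more than 6 CPM, a level no ND mouse reached. Ciart rose by 2.54 on the log2 scale in OHFD against YND (standard error 0.84, adjusted p = 0.0258), 3.91 in batch 1 and 1.62 in batch 2. The call was lost without YND mouse 1, 2 or 3 or OHFD mouse 1 or 6, at adjusted p of 0.0536 to 0.0741. In YHFD against YND the difference was 2.85 (standard error 0.85, adjusted p = 0.0615), and in OHFD against OND it was 2.11 (standard error 0.83, adjusted p = 0.142). The YHFD difference was called without YHFD mouse 2 or 4 or OHFD mouse 2 (lowest adjusted p = 0.0266).

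Dbp (ENSMUSG00000059824, chromosome 7, 45705088 to 45710203, plus strand) encodes a transcription factor that carries the rhythm to many liver genes. It had the widest range of the 10, from 0.318 CPM in YND mouse 4 to 121 CPM in YHFD mouse 3. In YND the 6 mice held 0.851, 0.470, 1.99, 0.318, 29.4 and 49.8 CPM in order of their numbers. In OND, mice 3 and 4 held 1.19 and 1.63 CPM and the other 4 held 19.3 to 56.1 CPM. The YHFD mice ran from 15.8 to 121 CPM (median 44.1) and the OHFD mice from 11.4 to 111 (median 40.9). Low Dbp, under 2 CPM, thus occurred in 4 YND and 2 OND mice and in no HFD mouse, but the ND and HFD groups overlapped. The log2 differences did not pass, at 2.12 in YHFD against YND (standard error 1.05, adjusted p = 0.247), 1.90 in OHFD against YND (standard error 1.05, adjusted p = 0.170) and 1.03 in OHFD against OND (standard error 0.97, adjusted p = 0.574). The second was called without YND mouse 6 (adjusted p = 0.0461). Over 11 other settings Dbp was called in 4 for YHFD against YND, among them limma on log2(FPKM + 1) at 2.89 (adjusted p = 0.0398), and in 6 for OHFD against YND. The value for YHFD was 6.12 in batch 1, where the 3 YND mice were all low, and 0.41 in batch 2, where 1 of 3 was. Dbp shares 539 exon bases with Sphk2 on the opposite strand (mean 52.5 CPM), so reads of that pair could be mixed too.

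Per kilobase of merged exon, a scale on which genes can be set side by side, Nr1d1 led in every group, from 16.7 ± 10.9 CPM per kb (SD, n = 6) in YND to 24.1 ± 10.7 in OND. In YND the order after it was Nr1d2 (10.7 ± 5.80), Clock (5.30 ± 0.90), Dbp (4.62 ± 7.02), Arntl (3.28 ± 1.52), Per2 (1.41 ± 0.46), Npas2 (1.09 ± 0.84), Per1 (0.899 ± 0.69), Per3 (0.613 ± 0.68) and Ciart (0.322 ± 0.22). The SD ranges of all neighbours in that order overlapped. In OHFD the order was Nr1d1 (21.1 ± 8.44), Dbp (16 ± 12), Nr1d2 (15.1 ± 4.63), Clock (3.02 ± 0.56), Per2 (2.63 ± 1.19), Per1 (2.38 ± 1.88), Ciart (1.95 ± 1.73), Per3 (1.82 ± 1.1), Arntl (1.02 ± 0.51) and Npas2 (0.171 ± 0.32). There the SD ranges of Nr1d2 and Clock, and of Arntl and Npas2, did not overlap, and those of the other neighbours did.

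Counted over the list, 2 of 10 clock genes were called in YHFD against YND, both lower and both activators, where 3.5% of the 13583 tested genes were called (1.91% higher and 1.59% lower). DESeq2 called 4 there, Arntl and Clock lower and Per2 and Ciart higher, where it called 1255 of 13583 genes. With limma on log2(FPKM + 1), Arntl (-0.186) and Dbp (2.886) were called, where 301 of 13195 genes were. The median edgeR log2 difference of the 10 clock genes was 0.82, with 7 positive and 3 negative, against 0.01 over all tested genes. In OHFD against YND, 6 of 10 were called, 3 lower (Arntl, Clock and Npas2) and 3 higher (Per2, Per3 and Ciart), where 30.2% of all genes were called (17.3% higher and 12.9% lower). DESeq2 called the same 6, where it called 4675 of 13583 genes. With limma on log2(FPKM + 1), Arntl (-0.185), Clock (-0.263), Npas2 (-0.043) and Dbp (2.647) were called, where 3069 of 13195 genes were. The 3 activator values were smaller in size than those of edgeR (-1.68, -0.81 and -2.84). In both comparisons all 3 activators had negative and all 7 other genes positive differences, except Nr1d1 in YHFD (-0.07) and Nr1d2 in OHFD (-0.085) in batch 2 alone, and the comparisons share the YND mice. In OHFD against OND, 0 of 10 were called by edgeR (background 3.01%) and 1, Per2, by DESeq2, which called 1137 of 13583 genes. By edgeR 5 were at an unadjusted p under 0.05, and the share of all tested genes under it is not given here for any comparison. The edgeR differences of OHFD from OND ran from -2.18 to -0.43 in the 3 activators and from -0.19 (Nr1d1) to 2.11 in the 7 others. In OND against YND, 0 of 10 were called by edgeR and by DESeq2, with 1 at an unadjusted p under 0.05 by edgeR (Clock). There edgeR called 8.5% of all genes (7.26% higher and 1.24% lower) and DESeq2 1676 of 13583. The differences there ran from -0.66 to 0.96, and 6 of the 7 repressor and output genes were positive, of which Per3, Nr1d2 and Dbp were negative in batch 2 alone.

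No clock gene was called between old and young HFD mice. The log2 differences of OHFD from YHFD ran from -0.51 (Npas2, standard error 0.96) to 0.04 (Nr1d1, standard error 0.38). By edgeR or DESeq2 0 of 10 were called, and none had an unadjusted p under 0.05 by edgeR. There edgeR called 2.24% of all genes and DESeq2 859 of 13583. The age by diet interaction, the change with HFD in old mice minus that in young mice, ran from -1.25 for Per1 (standard error 0.92) to 0.62 for Arntl (standard error 0.63). None of the 10 was called by edgeR or DESeq2 or had an unadjusted p under 0.05 by edgeR. Of all genes, edgeR called 0.0% and DESeq2 4 of 13583. The sign of the interaction was the same in each batch alone for 5 of the 10 genes (Arntl, Clock, Per1, Nr1d2 and Dbp), and it turned between batches for Npas2, Per2, Per3, Nr1d1 and Ciart. Groups that did not overlap in CPM were rare among the 10, with 1 (Clock) in OHFD against YND and 0 in the other comparisons. The share of all tested genes was 7.26% in OHFD against YND, 4.83% in YHFD against YND, 3.8% in OND against YND, 1.26% in OHFD against OND and 0.802% in OHFD against YHFD.

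**Figure D2:**
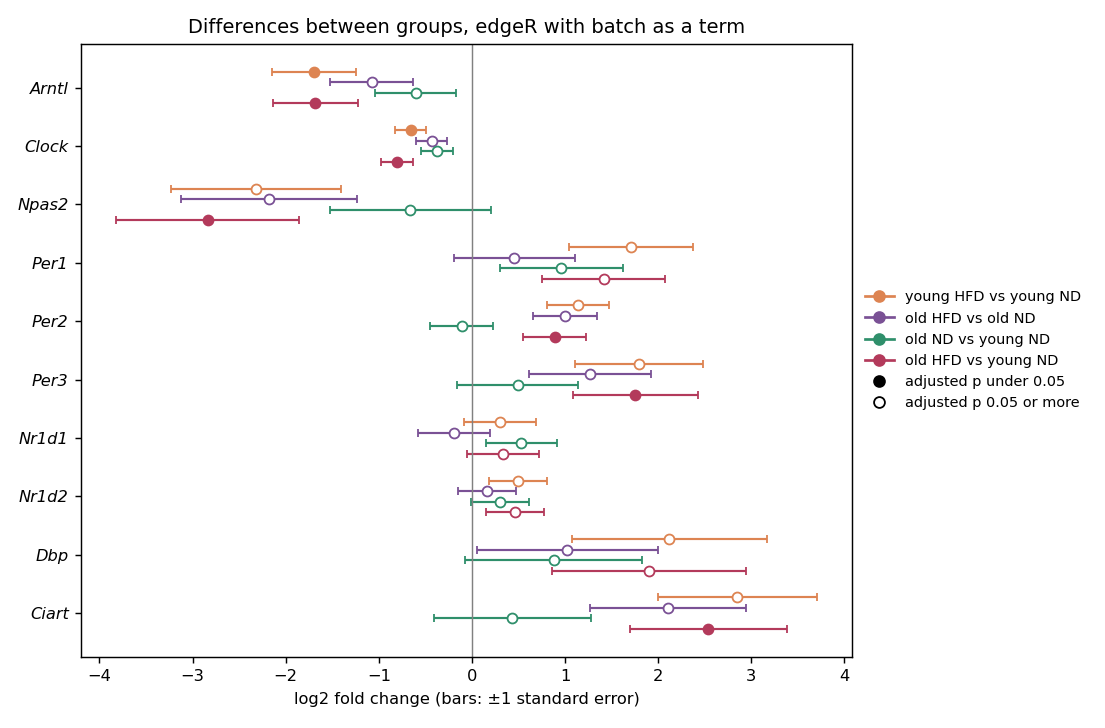
Log2 fold change (x axis) of each clock gene (y axis) in 4 comparisons (colours), with bars of 1 standard error from edgeR and filled points where the adjusted p was under 0.05. Arntl, Clock and Npas2 lie left of 0 in all 4, and the 2 filled points of YHFD against YND are Arntl (-1.70) and Clock (-0.66).

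The differences from YND were larger in batch 1 than in batch 2 for all 10 genes in YHFD and in OHFD. Between YHFD and YND, Per3 differed by 3.73 in batch 1 and 0.38 in batch 2, Ciart by 4.49 and 1.45, and Arntl by -2.34 and -0.97. With 3 mice against 3, batch 1 alone called Per3 and Dbp in YHFD against YND, and Arntl, Clock, Npas2, Per3 and Dbp in OHFD against YND, where it called 130 and 919 of 13543 genes. Batch 2 alone called 0 of 10 in either, where it called 9 of 14243 genes in the first and 617 in the second. In batch 1 the YND mice were numbers 1 to 3. In batch 2 they were mouse 4, with 2.65 CPM of Per3 and 0.318 of Dbp beside up to 1.95 and 1.99 in mice 1 to 3, and mice 5 and 6, with at least 11.6 and 29.4 CPM.

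**Figure D3:**
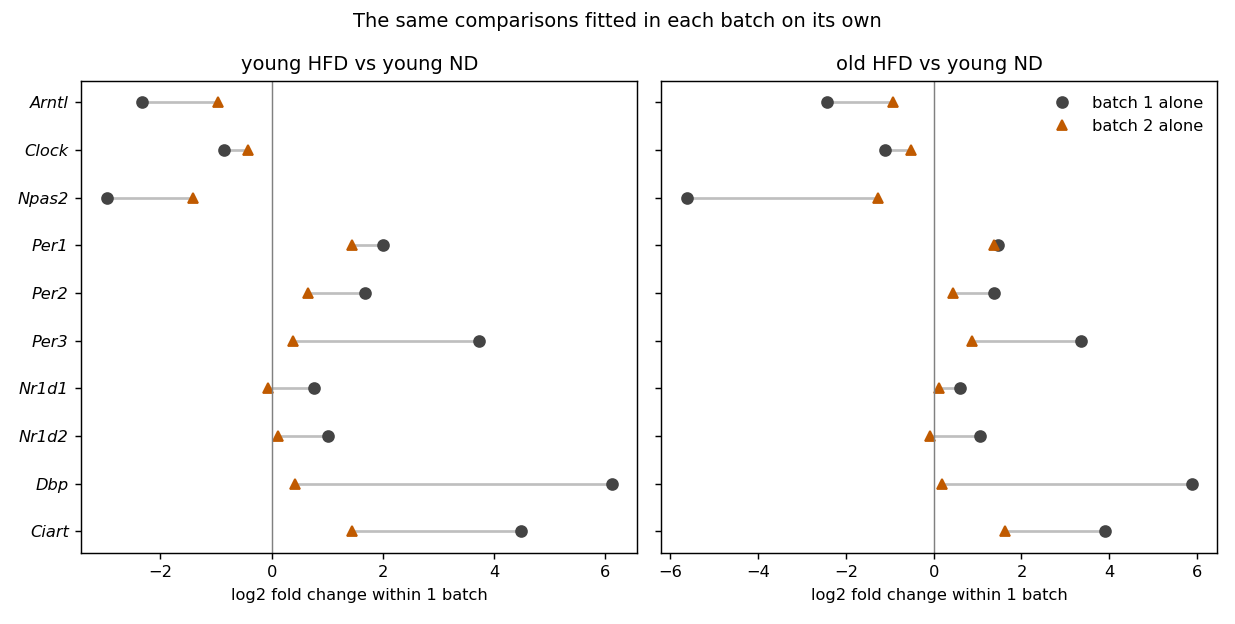
Log2 fold change (x axis) of each clock gene (y axis) fitted in batch 1 alone (circles) and batch 2 alone (triangles), for YHFD against YND (left) and OHFD against YND (right). Every triangle lies closer to 0 than its circle, and Dbp moves most, from 6.12 to 0.41 on the left and from 5.89 to 0.18 on the right.

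In all of these genes but Clock, mice of the same group differed from each other more than in the median gene. The percentiles below were not matched for level, and Npas2, Per1 and Ciart were scarce, with 0 counts in some mice. The SD of log2 CPM within groups, pooled over the 4 groups, was 0.39 at the median of all tested genes. For Dbp it was 2.05, above 99.9% of tested genes, for Per1 1.79 (99.6%), for Ciart 1.61 (98.9%), for Npas2 1.60 (98.8%) and for Per3 1.28 (93.6%). Arntl (0.87, 81.6%), Nr1d1 (0.76, 77.0%), Per2 (0.64, 72%) and Nr1d2 (0.61, 70.1%) were nearer the middle, and Clock (0.30, 31.7%) was below the median. The largest spreads lay in different groups. Dbp varied most in YND (SD 2.94) and least in YHFD (SD 1.1), whereas Ciart varied least in YND (SD 0.86) and most in OHFD (SD 2.33). Without OHFD mouse 2, which had 0 counts of Ciart and Per1 (left out after the data were seen), Ciart varied most in YHFD (SD 1.76, with 1.23 in OHFD). The pooled SD without that mouse was 1.15 for Per1 (above 92.0% of tested genes) and 1.27 for Ciart (94.3%).

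Over all 24 mice the activators and the other 7 genes lay on opposite sides of their means in most mice. With each gene scaled to a z-score over the 24 mice, differences between groups included, the mean of the 3 activators and the mean of the 7 others had opposite signs in 21 of 24 mice. Of the rest, 2 were positive in both (YND mouse 5 and OND mouse 1) and 1 was negative in both (OHFD mouse 2). The activator mean exceeded the other in 5 of 6 YND mice, 4 of 6 OND mice, 2 of 6 YHFD mice and 2 of 6 OHFD mice. The repressor mean minus the activator mean was -1.57 ± 1.47 (SD, n = 6) in YND, -0.56 ± 1.18 in OND, 1.06 ± 1.46 in YHFD and 1.08 ± 1.22 in OHFD. YND mice 1 to 4 were at -2.67 to -2.11, and OND mice 3 and 4 at -1.85 and -1.56, while 5 of 12 ND mice lay in the range of the HFD mice (-0.71 to 3.0). These were YND mice 5 and 6 at -0.11 and 0.68 and OND mice 1, 5 and 6 at -0.385, 0.48 and 1.11.

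**Figure D4:**
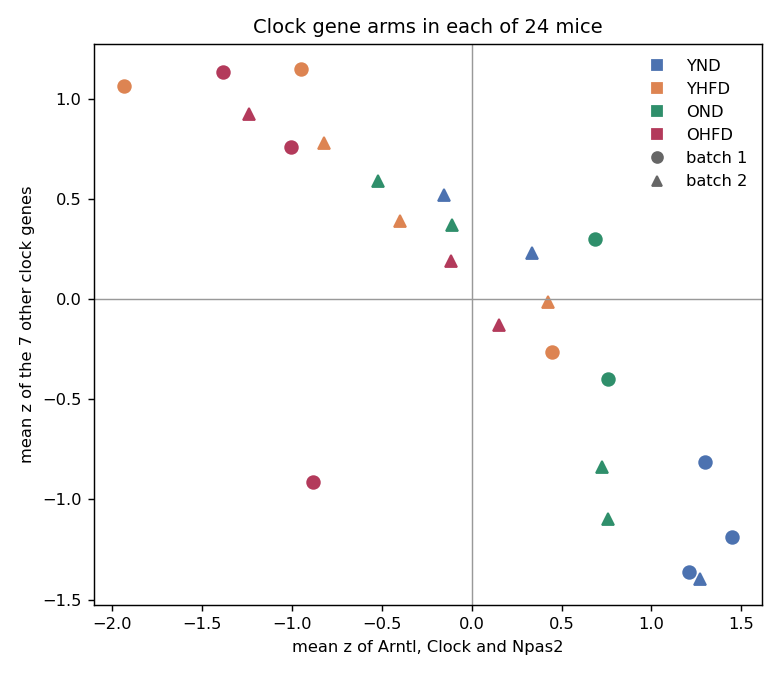
Mean z-score of Arntl, Clock and Npas2 (x axis) and of the 7 other clock genes (y axis) in each of the 24 mice, coloured by group, with circles for batch 1 and triangles for batch 2. The mice form a falling band from YND mice 1 to 4 at the lower right to HFD mice at the upper left, and OHFD mouse 2 lies off it at -0.88 and -0.91.

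The same opposition was present between mice of 1 group and batch. After the mean of each group within each batch was removed from log2 CPM, Arntl correlated over 24 mice with all 9 other genes. The strongest relation was with Per3, with a Pearson r of -0.93 and a Spearman rho of -0.92 (two-sided permutation test within group and batch, p = 9e-05 and 0.00018, adjusted p = 0.000225 and 0.00054 over 9 relations). The Pearson r was -0.83 with Ciart, -0.80 with Dbp, -0.76 with Nr1d2, -0.73 with Per1, -0.70 with Per2 and -0.52 with Nr1d1, and 0.75 with Clock and 0.74 with Npas2. Their permutation p ran from 1e-05, the smallest that 100000 resamples can give, to 0.021 for Nr1d1, with adjusted p of 9e-05 to 0.021. Spearman rho for these ran from -0.86 (Ciart) to 0.74 (Clock), with permutation adjusted p of at most 0.0250.

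Without the 2 mice farthest from the median Arntl, YHFD mouse 3 and YND mouse 1, r with Per3 was -0.96 and with Clock 0.68, and all 9 relations kept a permutation adjusted p under 0.05. Leaving out any 1 mouse moved r with Nr1d1 between -0.69 and -0.39 and r with Per3 only between -0.95 and -0.91. Within batch 2 (13 mice) r was -0.95 with Per3, -0.91 with Dbp and 0.88 with Npas2, and all 9 passed with a permutation adjusted p of at most 0.0236. Within batch 1 (11 mice) r was -0.91 with Per3, -0.89 with Ciart and 0.73 with Clock, all 9 had the same signs, and none passed (lowest permutation adjusted p = 0.0827). Over all 45 pairs of the 10 genes, as a description, r was positive in 3 of 3 pairs of activators and 21 of 21 pairs of the other genes, and negative in all 21 pairs between them. The highest was Nr1d2 with Dbp at 0.93, and the weakest between the arms was Clock with Nr1d1 at -0.09.

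**Figure D5:**
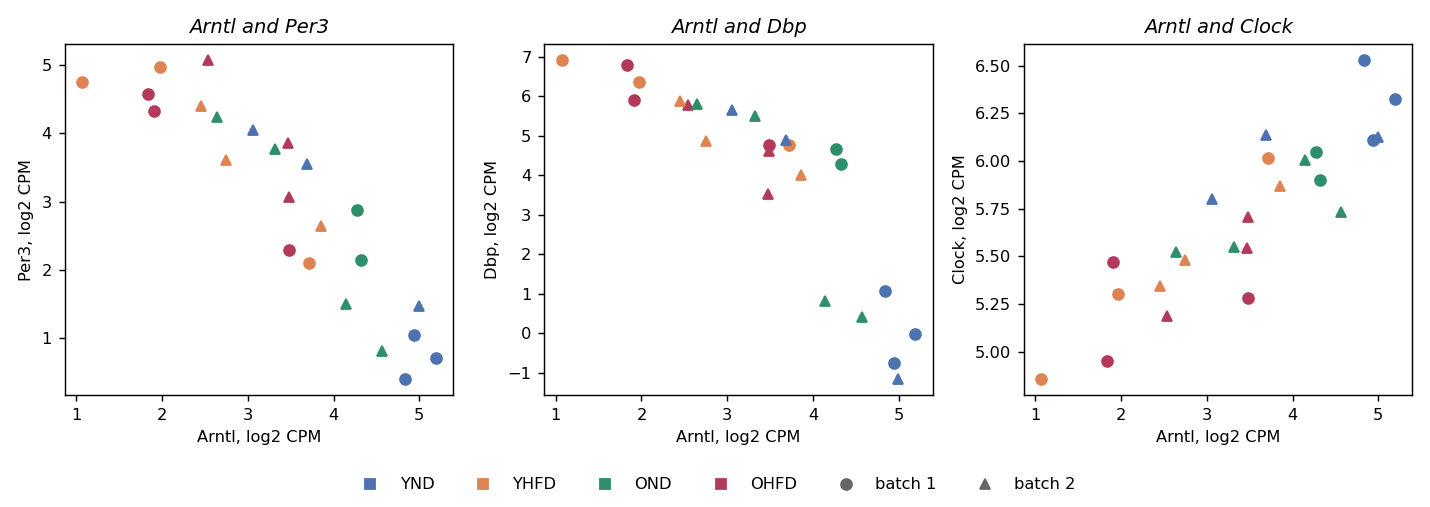
Log2 CPM of Per3, Dbp and Clock (y axes, left to right) against that of Arntl (x axes) in each of the 24 mice, coloured by group, with circles for batch 1 and triangles for batch 2. Per3 and Dbp fall and Clock rises with Arntl, and in the Dbp panel 6 ND mice with under 2 CPM stand apart from the other 18 mice.

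Outside the 10, a list of 17 further clock components gave 3 genes called in YHFD against YND, all lower, and 8 in OHFD against YND, 6 lower and 2 higher, where 3.5% and 30.2% of all tested genes were called. Cry1, the repressor partner of the PER proteins, was lower in YHFD, OND and OHFD than in YND. Its level was 8.72 to 32.8 CPM in YND (median 23.4), 5.87 to 14.1 in YHFD (median 7.62), 3.86 to 12.6 in OND (median 8.17) and 3.53 to 7.73 in OHFD (median 5.85). The log2 difference of Cry1 from YND was -1.30 in YHFD (adjusted p = 0.0201), -1.31 in OND (adjusted p = 0.00951) and -1.92 in OHFD (adjusted p = 0.000275). Nfil3, the repressor that competes with DBP for D-boxes, fell too, with -1.32 in YHFD (adjusted p = 0.0131) and -1.49 in OHFD (adjusted p = 0.00089) against YND. Rora, an activator of Arntl, fell in the same comparisons (-0.43, adjusted p = 0.0333, and -0.52, adjusted p = 0.00166). Fbxw11, a ubiquitin ligase subunit that targets PER proteins, fell by 0.50 in OHFD against YND (adjusted p = 0.0035). Csnk1e, a kinase of PER proteins, rose by 0.89 in OND against YND (adjusted p = 0.0187). The calls named for OHFD against YND, those of Nfil3 in YHFD and of Cry1 in OND held in 24 of 24 fits without 1 mouse. Cry1 in YHFD lost its call in 5 (YND mouse 2 or 4 or YHFD mouse 1, 3 or 5), Rora in YHFD in 9 (YND mouse 1, 2, 3 or 5, YHFD mouse 1, 3, 5 or 6 or OND mouse 2) and Csnk1e in 2 (OND mouse 2 or 4), with adjusted p of at most 0.0652, 0.0861 and 0.0685. In OND against YND 2 of 17 were called (background 8.5%). In OHFD against OND (background 3.01%) and OHFD against YHFD (background 2.24%) 0 of 17 were, with 6 at an unadjusted p under 0.05 in each.

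Of 20 known output genes of the liver clock, 4 were called in YHFD against YND (2 higher, 2 lower), 3 in OND against YND (2 higher, 1 lower) and 6 in OHFD against YND (3 higher, 3 lower), which is 20%, 15% and 30% of the list beside 3.5%, 8.5% and 30.2% of all tested genes. Rgs16, a regulator of G protein signalling with a strong daily rhythm in liver, held 1.41 to 33.8 CPM in YND (median 11.2), 8.84 to 152 in YHFD (median 78.4), 23.4 to 123 in OND (median 53.7) and 33.9 to 289 in OHFD (median 51.7). It rose by 2.82 on the log2 scale in YHFD (adjusted p = 0.0196), by 2.05 in OND (adjusted p = 0.0406) and by 3.06 in OHFD (adjusted p = 0.00183) against YND. The OND call was lost in 9 of 24 fits without 1 mouse (YND mouse 1 to 5 or OND mouse 1, 3, 4 or 6, adjusted p up to 0.0899). Noct, which encodes the rhythmic phosphatase nocturnin, rose by 1.70 in YHFD (adjusted p = 0.0330), 3.24 in OND (adjusted p = 0.000606) and 4.06 in OHFD (adjusted p = 1.04e-05) against YND, and by 2.36 in OHFD against YHFD (adjusted p = 0.00874). Elovl3, a fatty acid elongase that is rhythmic in male liver, fell against YND, with -1.89 in YHFD (adjusted p = 0.0251), -1.58 in OND (adjusted p = 0.0285) and -1.96 in OHFD (adjusted p = 0.00377). Ppard, a nuclear receptor of fatty acids, fell against YND, with -1.91 in YHFD (adjusted p = 0.0264) and -1.83 in OHFD (adjusted p = 0.00688). In OHFD against OND, 2 of 20 were called, both higher, which is 10% of the list beside 3.01% of all tested genes (1.37% higher). These were Tsc22d3, a glucocorticoid target (1.15, adjusted p = 0.0159), and Tfrc, the transferrin receptor (1.16, adjusted p = 0.0307). Tfrc also rose by 0.93 in OHFD against YND (adjusted p = 0.0146), a call lost without OHFD mouse 2 (adjusted p = 0.0808). The other calls named for OHFD against YND and all those of Noct outside YHFD against YND held in 24 of 24 fits without 1 mouse. The YHFD against YND call was lost in 3 fits for Rgs16 (YND mouse 1 or 2 or YHFD mouse 5), 7 for Elovl3 (YND mouse 1 to 4 or YHFD mouse 1, 3 or 5), 6 for Ppard (YND mouse 1, 2 or 4 or YHFD mouse 1, 3 or 5) and 7 for Noct (YND mouse 2, 3, 4 or 6 or YHFD mouse 1, 3 or 6), with adjusted p of 0.0506 to 0.098. Elovl3 in OND lost it in 6 (YND mouse 1 to 4 or OND mouse 3 or 4, adjusted p up to 0.0808), Tsc22d3 in 1 (OND mouse 2, 0.0548) and Tfrc in OHFD against OND in 2 (OND mouse 1 or 2, up to 0.0948).

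Immediate early genes, which cell isolation and other acute signals raise and among which Per1 is often counted, were mostly higher in old mice when set against YND. Of 16 such genes other than Per1, 11 were called higher and 0 lower in OND against YND (7.26% of all tested genes were higher) and 10 higher and 0 lower in OHFD against YND (17.3%). Between the HFD groups, OHFD against YHFD, 1 of 16 was called, higher (background 2.24%), with 16 of 16 positive, a median log2 difference of 0.84 and 7 at an unadjusted p under 0.05. In OHFD against OND 1 of 16 was called, lower (background 3.01%). In YHFD against YND 0 of 16 were called (background 3.5%), with 5 at an unadjusted p under 0.05. The median log2 difference there was 0.19, beside 1.12 in OND against YND. Their part in the level of Per1 was not tested.

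The genes whose levels followed the clock genes most closely were ranked by the correlation of log2 CPM with the repressor mean minus the activator mean over the 24 mice, as a description that includes the differences between groups. The 5 highest were Usp2 (r = 0.91), Tef (0.90), Slc5a6 (0.88), Slc2a5 (0.85) and Mfsd2a (0.84). Usp2 encodes a deubiquitinase, and its mean level was 5.73 CPM in YND, 6.04 in OND, 16.9 in YHFD and 15.5 in OHFD. Mfsd2a, a lysophospholipid transporter, averaged 24.8 CPM in YND, 23.3 in OND, 122 in YHFD and 81.3 in OHFD. Among the 5 lowest were Trim2 (-0.94), Dtx4 (-0.93), Nfil3 (-0.90) and Tab2 (-0.87). With the mean of each group within each batch removed, the r with Arntl was -0.95 for Usp2, -0.88 for Tef, -0.83 for Slc5a6, -0.79 for Mfsd2a and -0.68 for Slc2a5. For Trim2, Dtx4, Nfil3 and Tab2 that r was 0.92, 0.88, 0.80 and 0.80. These genes were picked by a score that includes Arntl in the same 24 mice, so a strong r with Arntl was partly set by that choice.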

How the data were processed

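Isolated hepatocytes of 24 mice were analysed, with groups and batches taken from the sample labels. The authors deposited read counts per gene, made by STAR 2.7.3a alignment to mm10 and HTSeq 0.11.2 counting; strand and duplicate handling are not stated. The authors also deposited FPKM values, adjusted between batches, which were close to CPM over the whole gene span, introns included (within 10% of the span for 85.2% of 8994 genes with a mean over 5 CPM), so levels per length were computed from counts and exons of a GENCODE annotation of GRCm38 instead.

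Counts were filtered with filterByExpr (minimum count 10) and tested with edgeR 4.0.16 (R 4.3.3), using TMM scaling, group and batch as terms over the 24 mice together, quasi-likelihood F tests and Benjamini-Hochberg adjustment within each comparison at 0.05. Log2 CPM used a prior count of 2. Correlations used 100000 permutations within group and batch (scipy 1.17.1, numpy 2.4.6, pandas 2.3.3). The edgeR and permutation steps were tested on simulated data. Total counts set the precision of scarce genes, and reads carry no molecular identifiers, so the limits at 3 counts cover counting error only. Replicates are separate mice.

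All 10 members are named. From 2 lists (17 further components and 20 outputs), up to 5 genes per comparison with the smallest adjusted p under 0.05 are named, and the 5 highest and 5 lowest correlated genes, except 2 genes that are not reported here. Members and lists were chosen with earlier results of these data known. Alternatives were RLE scaling, no count filter, no batch term, the replicate block, each batch alone, the 2 groups alone, DESeq2 1.42.0, limma 3.58.1 on log2(FPKM + 1) or log2(FPKM + 0.1), and leaving out each mouse. The spread without OHFD mouse 2 was added after seeing the data.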

Additional observations from a re-analysis of the deposited data

Results flagged for a closer look

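In 40 groups of 6 mice (10 clock genes in 4 groups), a mouse was marked where its gap to the nearest mouse took up an unusually large part of the group's range by Dixon's criterion, which chance alone meets in about 1 in 20 groups. It marked 3 values. Per1 in YHFD mouse 2 was 1.67 log2 CPM, where the next lowest YHFD mouse was at 3.94. Per1 in OHFD mouse 2 was -2.96 log2 CPM, the value given to 0 counts, where the next lowest OHFD mouse was at 3.09. Per2 in YND mouse 3 was 1.84 log2 CPM, where the next lowest YND mouse was at 2.90.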

How the results depend on the processing

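Counts of clock genes called changed with several settings, and the cause was not tested. Genes called among all tested are given in brackets. In YHFD against YND the 2 calls (475 of 13583) became 9 with no count filter (1473 of 32336) and 5 in a fit of the 2 groups alone (2302 of 12353). They became 4 with DESeq2 (1255 of 13583), 1 with no batch term (174 of 13583), and 0 in batch 2 alone (9 of 14243) or with limma on unfiltered FPKM (152 of 26244). With limma on log2(FPKM + 1) or log2(FPKM + 0.1) the count there stayed at 2 (301 and 358 of 13195), with Dbp in place of Clock. In OHFD against YND the 6 (4100 of 13583) became 8 with no count filter, with Per1 and Dbp added (4623 of 32336). They became 3 with no batch term (3049 of 13583) and 0 in batch 2 alone (617 of 14243). Calls were also lost there for Npas2 and Per2 in the 2 groups alone, which left 4 calls (2094 of 12034). With limma on log2(FPKM + 1), filtered (3069 of 13195) or not (2237 of 26244), Per2, Per3 and Ciart were lost and Dbp was added (4 calls). With limma on log2(FPKM + 0.1), Per2 and Ciart were lost and Dbp was added, which gave 5 calls (3252 of 13195). The 0 calls in OHFD against OND (409 of 13583) became 6 with no count filter (1108 of 32336) and 1 with DESeq2 (1137 of 13583). Those in OND against YND (1155 of 13583) became 4 with no count filter, Arntl, Per1, Nr1d1 and Dbp (2053 of 32336), and 1 in batch 1 alone (93 of 13543). In the interaction they became 2 with no count filter (587 of 32336). Leaving out 1 mouse gave 0 to 4 calls in YHFD against YND, 2 to 7 in OHFD against YND, 0 to 1 in OHFD against OND and 0 to 0 in the other 3 comparisons. Of the 9 correlations with Arntl, 0 passed within batch 1, and 8 to 9 passed when 1 mouse was left out.

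The replicate block in place of batch gave 2 calls in YHFD against YND (283 of 13583 genes called). In OHFD against YND it gave 6, with Dbp in place of Ciart (3478 of 13583), and it changed no other count of clock genes. Same numbers belong to different mice, whose deviations from the group mean correlated by 0.182 on average, and 7 of 24 mice correlated best with their own number. With the mean of each group within each batch removed, the values were -0.00199 and 8 of 24.

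Log2 differences changed sign 29 times under these settings and 37 times when 1 mouse was left out over 19 differences, and 0 of these values were called. In YHFD against YND this was Nr1d1 in batch 2 (-0.071), in OHFD against OND Nr1d1 in batch 2 (0.104), and in OHFD against YND Nr1d2 in batch 2 (-0.085). In OND against YND it was Per2 in batch 1 (0.135) and Per3 (-0.164), Dbp (-0.039) and Nr1d2 (-0.128) in batch 2. In the interaction it was Npas2 with the replicate block (-0.629) and in batch 1 (-1.932), and Per2 (0.123), Per3 (0.664), Nr1d1 (0.175) and Ciart (0.152) in batch 2. In OHFD against YHFD it was Arntl (-0.039) and Nr1d1 (-8.86e-05) with no filter, Per3 with no batch term (0.047), Per3 (0.065) and Nr1d1 (-0.089) with the replicate block, Arntl (-0.095), Nr1d1 (-0.16) and Nr1d2 (0.057) in batch 1, Npas2 (0.149), Per3 (0.5) and Ciart (0.165) in batch 2, Per3 in the 2 groups alone (0.093), Nr1d1 with limma (-0.096, -0.115 at the lower pseudocount and -0.096 unfiltered) and Per3 with limma at the lower pseudocount (0.025). Leaving out 1 mouse gave, in OHFD against YHFD, -0.192 to 0.349 for Arntl, -0.286 to 0.333 for Per3, -0.127 to 0.171 for Nr1d1, -0.148 to 0.062 for Nr1d2, -0.737 to 0.23 for Dbp and -0.79 to 0.149 for Ciart. It gave -2.009 to 0.607 for Npas2 and -0.327 to 0.075 for Per2 in the interaction, and -0.269 to 0.028 for Per2 in OND against YND.

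Calls over all genes moved by more than 1.5 times as well. Against 475 in YHFD against YND there were 1473 with no count filter, 174 with no batch term, 283 with the replicate block, 130 and 9 in batches 1 and 2, 2302 in the 2 groups alone, 1255 with DESeq2, 301 with limma and 152 with limma unfiltered. Against 409 in OHFD against OND these were 1108 with no filter, 266 with no batch term, 15 and 16 by batch, 15 in the 2 groups alone, 1137 with DESeq2 and 172 with limma unfiltered. Against 1155 in OND against YND they were 2053, 628, 93 and 2 by batch, and 252, 555 (pseudocount 0.1) and 39 (unfiltered) with limma. Against 304 in OHFD against YHFD they were 1235, 116, 131 with the replicate block, 9 and 0 by batch, 48, 859 with DESeq2, and 180, 172 and 33 with limma. Against 4100 in OHFD against YND they were 919 and 617 by batch, 2094 in the 2 groups alone and 2237 with limma unfiltered. The interaction had 587 calls with no filter, 4 with DESeq2 and 1 with the replicate block. Leaving out 1 mouse gave 146 (YND mouse 2) to 998 (OHFD mouse 2) calls in YHFD against YND, over 1.5 times away in 11 of 24 fits. It gave 84 (OND mouse 2) to 823 (OHFD mouse 3) in OHFD against OND (6 fits), 40 (YHFD mouse 4) to 813 (OHFD mouse 3) in OHFD against YHFD (16 fits), 586 (OND mouse 4) to 1592 (OHFD mouse 2) in OND against YND (3 fits), 3314 to 4722 in OHFD against YND (0 fits) and 0 to 1 in the interaction.

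Npas2, Per1 and Ciart had 0 counts in 1 or more mice, so their fold changes depend on how zeros are treated. Per1 was at 0 only in OHFD mouse 2, whose total of 12910211 counts lay within the OHFD range (9200332 to 13517632). The reason for that zero was not tested.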
